A study of Mus musculus with 4 samples.

Results

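The genes described here encode the proteins of the cytosolic ribosome. They were taken by name from 50600 annotated mouse genes: symbols that begin with Rpl or Rps and a digit, or with Rplp or Rpsa, without the S6 kinases and without names marked as pseudogenes. The rule gave 93 genes, of which 92 are described, 85 of them typed as protein-coding and 7 as pseudogenes by the later annotation release used for gene types. Of the 92, called members below, 77 encode subunit proteins, 47 of the large (60S) and 30 of the small (40S) subunit, the paralog Rpl36al included. The other 15 are tissue-restricted or like-named paralogs, retrogenes and a binding protein. Each gene was also set beside the gene whose exons overlap its own on the opposite strand, which added 19 opposite genes of 17 members.

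A ribosomal protein gene is a short gene whose mRNA is among the most abundant in growing cells, because every ribosome needs 1 copy of nearly every subunit protein. In vertebrates these mRNAs begin with a pyrimidine-rich element, the TOP motif, through which mTOR signalling controls their translation. T cells raise ribosome production when they are activated. Many ribosomal protein genes host small nucleolar RNAs in their introns, and the genome holds many processed pseudogenes of them.

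The samples were 4 libraries of primary cells from C57BL/6NJ mice, labelled as T-helper 2 cells. Such cells are CD4 T lymphocytes specialised in type 2 cytokines. They form 1 group, replicates 1 to 4, so no treatment or cell type could be compared. Age is unknown, sex was not collected, and 1 donor identifier is shared by all 4. That the libraries came from separate mice is not stated, so p-values measure only the spread between these samples, which may be technical. A time course from 0 hours, of Th1 as well as Th2 cells, is named in the file headers. Total RNA-seq is the assay given, although the protocol linked for the library carries poly(A)+ RNA in its name.

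The libraries held 1452053 to 2351916 counts, and 12270 to 14884 genes had a count. A locus of ribosomal RNA took 6.90, 16.8, 3.47 and 12.6% of the counts in replicates 1 to 4, and the mitochondrial genome 1.53 to 1.95%. Of 6 T cell markers, 6 had a mean of at least 1 TPM, counts per exon length scaled to a common total. Of 7 Th2 markers, 3 did, and 2 of the others, the cytokine genes Il5 and Il13, were at 0. Some of these markers share exon bases with a gene on the other strand. Cd3e had 225 counts against 21840 in Gm48719, and Gata3 118 against 1256 in Gm13256. Ptgdr2 went the other way, with 135 counts against 17 in Ccdc86. Of 4 B cell and 4 macrophage markers, 2 each reached 1 TPM. Among the macrophage markers, Lyz2 and Adgre1 were at 0, Cd68 averaged 4.60 TPM, and Csf1r, which shares exon bases with Hmgxb3 on the other strand, averaged 107 TPM. Counts are fragments on the strand set as that of the gene, and which strand of the RNA the library kit reads is not given in the sources used here. Whether these counts follow the RNA of the annotated strand was not tested, so a level below is a level of such fragments.

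In 3 members, coding bases lie under an exon of the opposite gene, out of 16 members that have both an opposite gene and a coding sequence. The overlap was 259 of 468 coding bases in Rpl23a, 124 of 366 in Rpl22l1 and 105 of 369 in Rpl35, and none in the other 13. The coding exon of each with the most covered bases is shown, because the 3 opposite genes with the most counts lie at these loci. The sequences are from GENCODE transcripts on GRCm38 (mm10), coding strand, 5′ to 3′, with capitals for bases under an exon of the opposite gene.
Rpl23a (chr11:78181417-78181593, minus strand, opposite Tlcd1): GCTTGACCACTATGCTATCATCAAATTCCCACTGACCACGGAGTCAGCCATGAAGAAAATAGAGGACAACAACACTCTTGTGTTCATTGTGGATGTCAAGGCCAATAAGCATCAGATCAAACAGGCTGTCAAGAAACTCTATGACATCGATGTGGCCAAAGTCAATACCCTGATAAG
Rpl35 (chr2:39001619-39001765, minus strand, opposite Wdr38): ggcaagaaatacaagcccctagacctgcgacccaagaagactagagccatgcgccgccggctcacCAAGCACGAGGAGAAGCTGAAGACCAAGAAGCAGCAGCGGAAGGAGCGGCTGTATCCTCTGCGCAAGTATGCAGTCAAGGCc
Rpl22l1 (chr3:28807187-28807328, plus strand, opposite Gm33051): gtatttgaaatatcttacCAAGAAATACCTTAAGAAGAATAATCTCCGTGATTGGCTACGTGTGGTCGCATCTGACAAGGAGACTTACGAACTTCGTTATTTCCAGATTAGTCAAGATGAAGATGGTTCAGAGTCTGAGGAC
In the Rpl23a exon all 177 bases are covered. In the others the covered stretch is 81 of 147 bases in Rpl35 and 124 of 142 in Rpl22l1.

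Subunit genes were detected as a class, in fragments on the strand set as theirs. All 77 had a count in every library, and 82 of the 92 members had a mean of at least 1 TPM, where 34.0% of protein-coding genes and 21.6% of all genes did. The median over members was 44.9 TPM, or 5.49 as log2(TPM + 0.1), against -2.04 for protein-coding genes. Of the subunit genes, 98.7% in replicates 1 to 3 and 96.1% in replicate 4 lay above the 90th percentile of protein-coding TPM. The mean was 98.1% ± 1.30 (SD, n = 4). Levels within the class ran from 8.85 to 701 TPM, with 65 of 77 between 10 and 200 TPM. Members together held 0.733% ± 0.116 (SD, n = 4) of all counts.

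**Figure D1:**
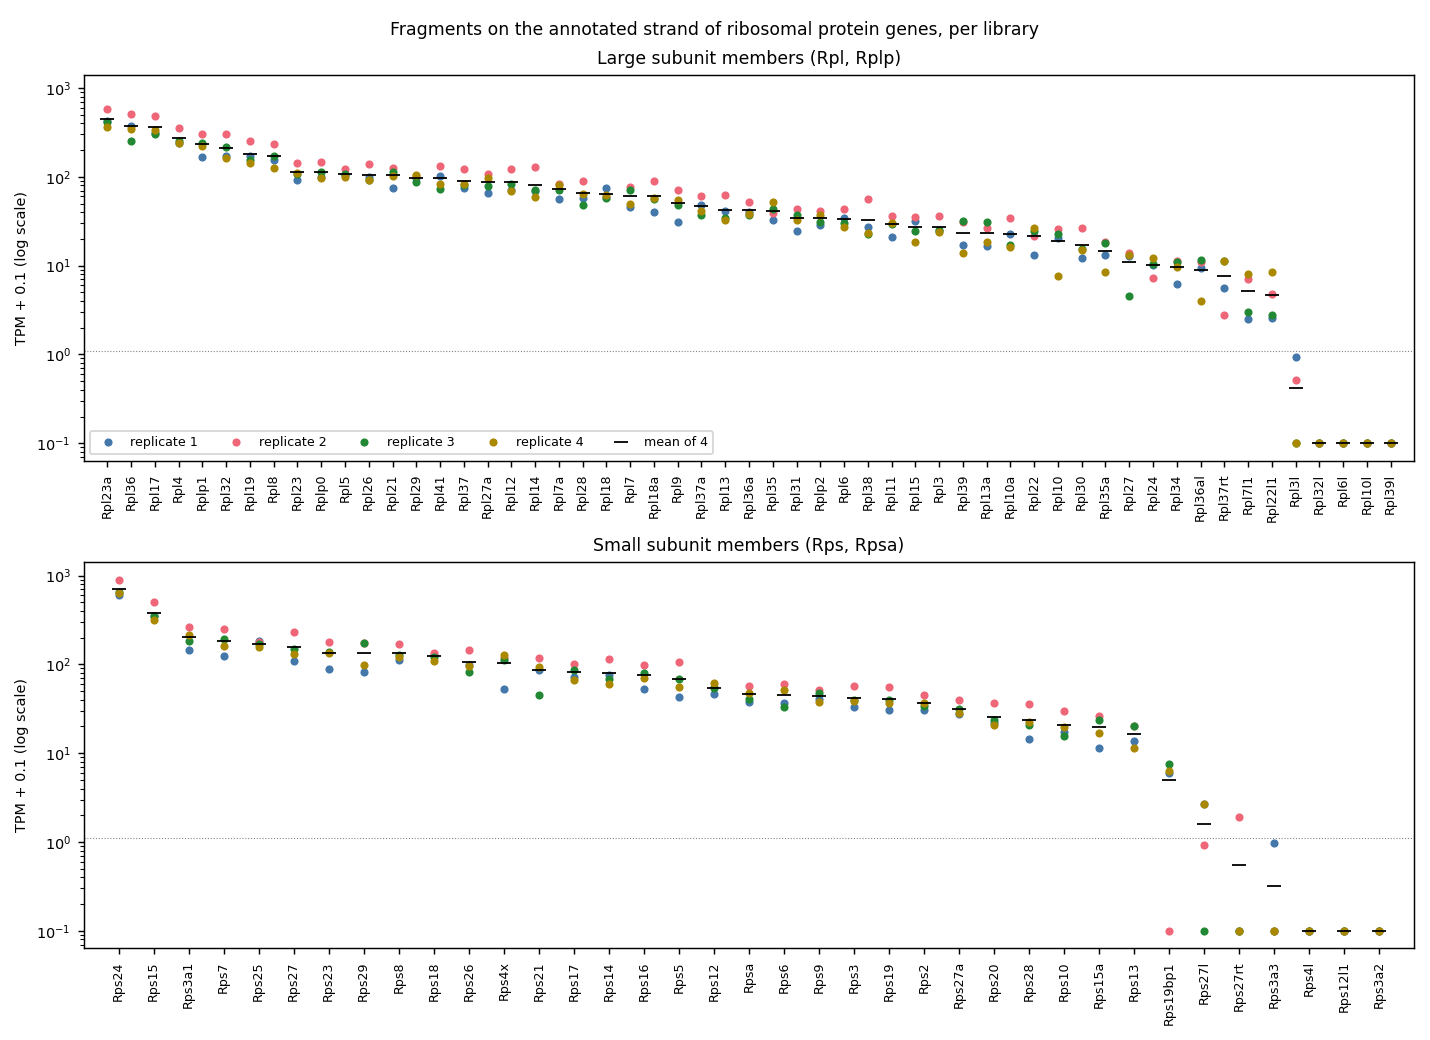
TPM + 0.1 on a log axis for each of the 92 members, with 1 point per library, a dash at the mean of 4 and a dotted line at 1 TPM, in separate panels for large and small subunit names. The subunit genes run from 8.85 to 701 TPM, and 7 members lie at 0.

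The highest members by mean TPM were Rps24, Rpl23a, Rps15, Rpl36, Rpl17, Rpl4, Rplp1, Rpl32 and Rps3a1. Rps24, a small subunit protein and one of the genes mutated in Diamond-Blackfan anaemia, read 607, 899, 653 and 643 TPM. Rpl23a, which lies at the exit of the nascent chain tunnel, read 426, 572, 412 and 365 TPM. Both were highest in replicate 2, and the ranges of the pair did not overlap. Rps15 averaged 383 ± 85.2, Rpl36 370.0 ± 109 and Rpl17 359 ± 86.0 TPM (SD, n = 4), and these 3 neighbours differed by less than their spread. Rpl4 (271 TPM), Rplp1 (233 TPM), Rpl32 (213 TPM) and Rps3a1 (202 TPM) followed, each within 1 SD of the next.

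The stalk of the large subunit, which recruits translation factors, is built from Rplp0, Rplp1 and Rplp2. Rplp1 read 169, 304, 240 and 222 TPM, Rplp0 99.0, 145, 114 and 95.6 TPM, and Rplp2 28.2, 40.9, 30.7 and 36.8 TPM. The 3 ranges did not overlap, with Rplp1 above Rplp0 and Rplp0 above Rplp2 in all 4 libraries. Rpsa, the small subunit protein also known as the laminin receptor, averaged 45.8 ± 8.46 TPM (SD, n = 4), close to the median of all members.

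At the low end of the subunit genes stood Rpl36al, a retrocopy of Rpl36a that encodes a nearly identical protein, at 8.85 ± 3.45 TPM. Rpl34 (9.44 TPM), Rpl24 (9.97 TPM) and Rpl27 (10.9 TPM) were next, and these 4 differed by less than their spread. These low genes were named after their values were seen. In Rpl24, 47.0% of the exon bases are shared with another gene of the same strand, Gm28037, in which no fragment was counted. A fragment over such shared bases is assigned to neither gene under the stated settings, and its part in the level was not tested. In Rpl13a the shared portion with Gm45713 was 29.4%.

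The 15 other members were low. Their median was -1.65 as log2(TPM + 0.1), and 7 of them had no count in any library, as had 44.6% of protein-coding genes and 66.4% of all 50600 genes: Rps4l, Rpl6l, Rpl10l, Rps12l1, Rpl32l, Rps3a2 and Rpl39l. Of these 7, 5 are typed as pseudogenes. Rpl10l and Rpl39l are known as testis paralogs of Rpl10 and Rpl39. A count of 0 allows up to 3 counts, 1.28 to 2.07 CPM (counts scaled by the library total) in these libraries, and covers counting error only. Rpl3l, the paralog of striated muscle, had 3 counts in all, and Rps27rt and Rps3a3 had 1 each.

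Of the paralogs that were found, Rpl7l1 had 9, 27, 10 and 20 counts in replicates 1 to 4, a mean of 5.08 ± 2.82 TPM. Rpl22l1, the paralog of Rpl22, had 7, 14, 7 and 16 counts and averaged 4.57 ± 2.75 TPM, below Rpl22 in every library. Rps27l, known as a p53 target, had 3, 1, 0 and 2 counts. Rps19bp1, which binds Rps19 and is no subunit, had 7, 0, 8 and 5 counts. Rpl37rt, a retrogene typed as a pseudogene, had 6, 3, 11 and 8 counts. Reads of retrocopies and of their parent genes may align to more than 1 place, so the split between them is uncertain.

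Large subunit members had a somewhat lower median than small subunit members. The median of log2(TPM + 0.1) over large subunit members minus that over small subunit members was -0.25, -0.026, -0.30 and -0.42 in replicates 1 to 4. The mean was -0.25 ± 0.16 (SD, n = 4), below 0 in 4 of 4 libraries, and 0.15, of the opposite sign, when means replaced medians. Over the 77 subunit genes alone the difference of medians was -0.37 ± 0.19 (SD), also below 0 in 4 of 4 libraries. Their median levels were 60.5 TPM for the large and 77.5 TPM for the small subunit. With 4 libraries the smallest p that an exact two-sided sign test allows is 0.125, so none was run.

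Position relative to genes of the other strand separated the members into 17 with an exon overlap, 5 with an overlap of the gene span only, 38 with a neighbour on the other strand within 5 kb and 32 with none. The median level was 41.4 TPM in the members with an exon overlap, 5.08 with a span overlap only, 46.1 within 5 kb and 57.5 with none. Only 2 of the 5 members with a span overlap are subunit genes. Subunit genes alone had medians of 63.4, 20.8, 60.9 and 75.4 TPM in the same order. Members with an exon overlap minus members without differed by -0.30, -0.35, 0.12 and 0.33 on the log2 scale in replicates 1 to 4. The mean of -0.048 ± 0.33 (SD) did not exceed the spread, and its sign turned without replicate 1 (0.034) or replicate 2 (0.054) and with means in place of medians (0.62). Over subunit genes alone it was -0.12 ± 0.38. Among protein-coding genes the corresponding medians were 1.84 TPM with an exon overlap, 0.120 with a span overlap, 0.549 within 5 kb and 0 with none. A difference in the pattern between members and other genes was not tested.

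**Figure D2:**
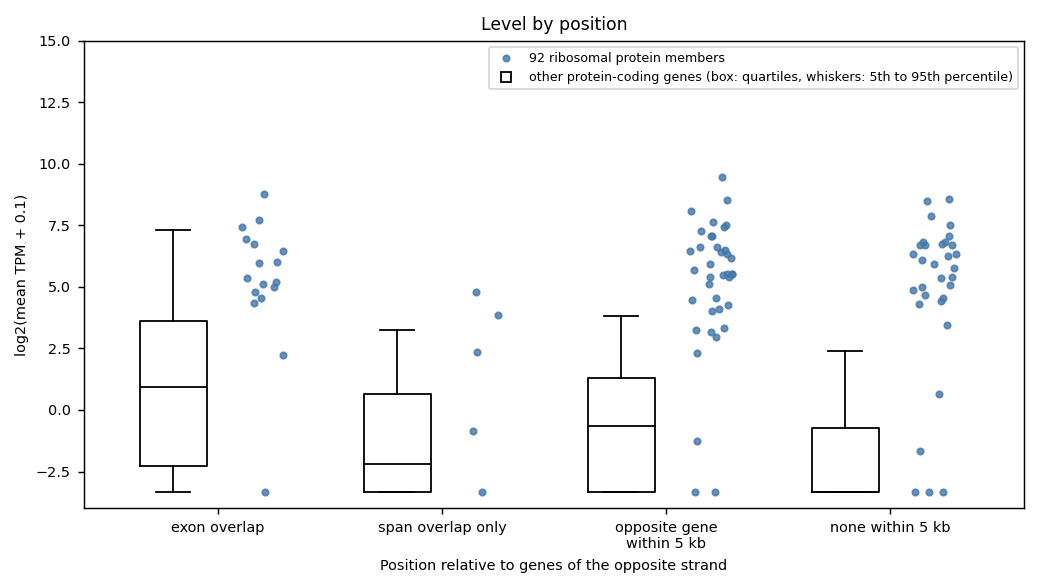
log2(mean TPM + 0.1) by position relative to opposite-strand genes, with members as points and other protein-coding genes as boxes (quartiles, whiskers from the 5th to the 95th percentile). The members lie at like heights in the classes with an exon overlap, within 5 kb and with none.

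The 19 opposite genes held more counts than the 92 members. They had 120128 counts against 58424, 1.54% ± 0.156 (SD, n = 4) of all counts. The ratio of opposite to member counts was 2.53, 1.46, 2.30 and 2.33 in replicates 1 to 4, lowest in replicate 2. Most of it lay at 3 loci: Tlcd1, Wdr38 and Gm33051 gave 85.8% ± 0.543 of the opposite counts. Of the 19, 15 are protein-coding, and 9 of the 17 members had fewer counts than the opposite gene with the largest overlap. These counts are not scaled by exon length, and the share over all paired genes was not computed. Rpl28 is among the 9, with 628 counts against 1089, although it was the denser side per kb.

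The pairs were compared by counts per kb of exon, in 1 fit over all 5438 genes that have an opposite-strand exon overlap and enough counts, by edgeR's quasi-likelihood test with the library as a block and Benjamini-Hochberg adjustment. The opposite gene was denser than the member in 4 of 17 pairs, where 45.8% of all genes tested had a denser opposite gene. The member was denser in 8 of 17, where 43.4% of all genes tested were denser. The remaining 5 did not pass. A pair in which each gene is the largest overlap of the other entered this fit once in each direction. This draws the shares of 45.8% and 43.4% toward each other by construction. The second count is close to its background and the first lies below it, a difference that was not tested. Intervals given for folds below are 95% exact binomial intervals on summed counts and cover counting error only.

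**Figure D3:**
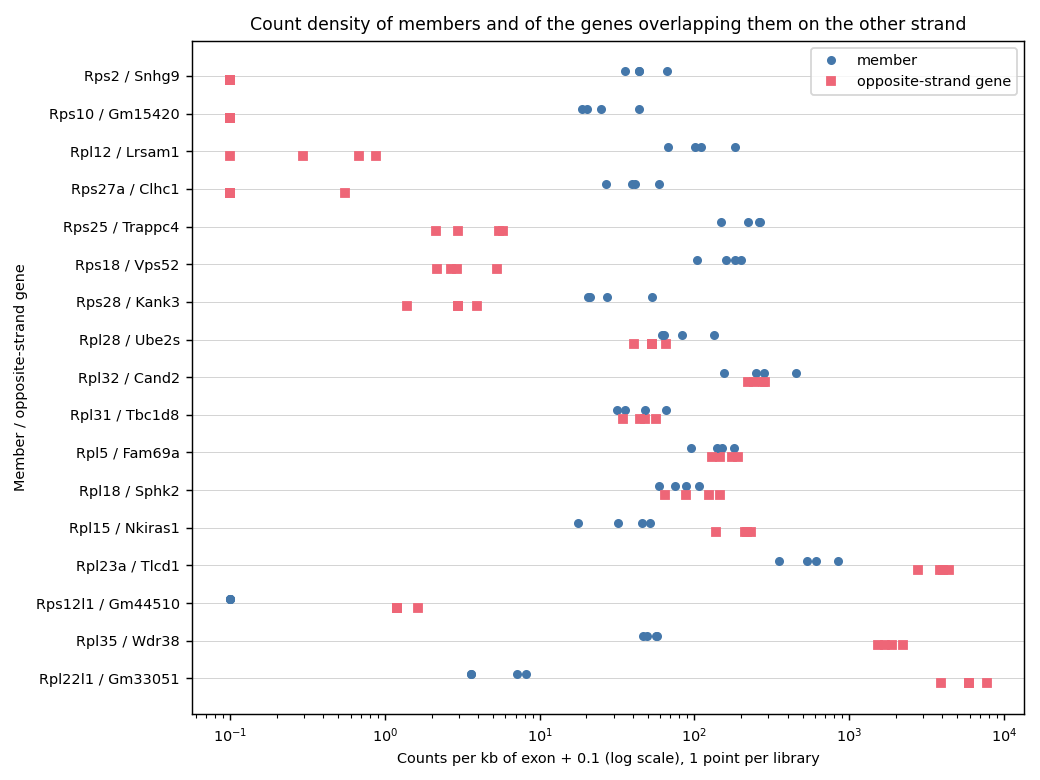
Counts per kb of exon + 0.1 on a log axis for 17 members (circles) and their opposite genes (squares), 1 point per library, ordered by the ratio. Squares lie right of the circles in Rpl22l1, Rpl35, Rpl23a and Rpl15 without overlap, and in Rps12l1, whose circles are at 0, and left of them in the top 7 pairs.

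Rpl23a and Tlcd1, a gene of a membrane protein, meet tail to tail over 506 bases, 59.7% of the exon bases of Rpl23a. Tlcd1 had 22010, 19258, 20336 and 13869 counts, and Rpl23a 518, 720, 455 and 296. Tlcd1 was 6.42-fold denser (6.14 to 6.71), a log2 ratio of -2.73 ± 0.16 (SE, edgeR adjusted p = 2.3e-10).

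Rpl35, a protein near the tunnel exit, is nested in the span of Wdr38, a gene of a WD-repeat protein, with 821 shared exon bases. Wdr38 had 6402, 5422, 4872 and 4431 counts, and Rpl35 58, 71, 70 and 61. Wdr38 was 35.1-fold denser (31.1 to 39.8), and the log2 ratio was -5.12 ± 0.18 (SE, edgeR adjusted p = 8.0e-13). Rpl35 also meets the start of Arpc5l, an actin-regulating subunit, over 62 bases. There the member was 4.71-fold denser (3.90 to 5.69).

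At Rpl22l1, Gm33051, an antisense RNA gene that covers part of its last exon, had 1624, 1641, 2119 and 1071 counts against 7, 14, 7 and 16. Its density was 1065-fold higher (792 to 1467), a log2 ratio of -9.99 ± 0.33 (SE, edgeR adjusted p = 4.2e-13). Rpl15, a large subunit protein, starts head to head with Nkiras1, an inhibitor of NF-kappa-B signalling, over 105 bases. Nkiras1 was 5.44-fold denser (4.88 to 6.08), with an edgeR adjusted p of 1.2e-08.

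All 3 members whose coding sequence lies under an opposite exon were thus among the 4 with a denser opposite gene, Rpl15 being the other. This pattern was noticed after the values were seen and has no test. The 13 members without coding overlap held the 8 pairs in which the member was denser.

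**Figure D4:**
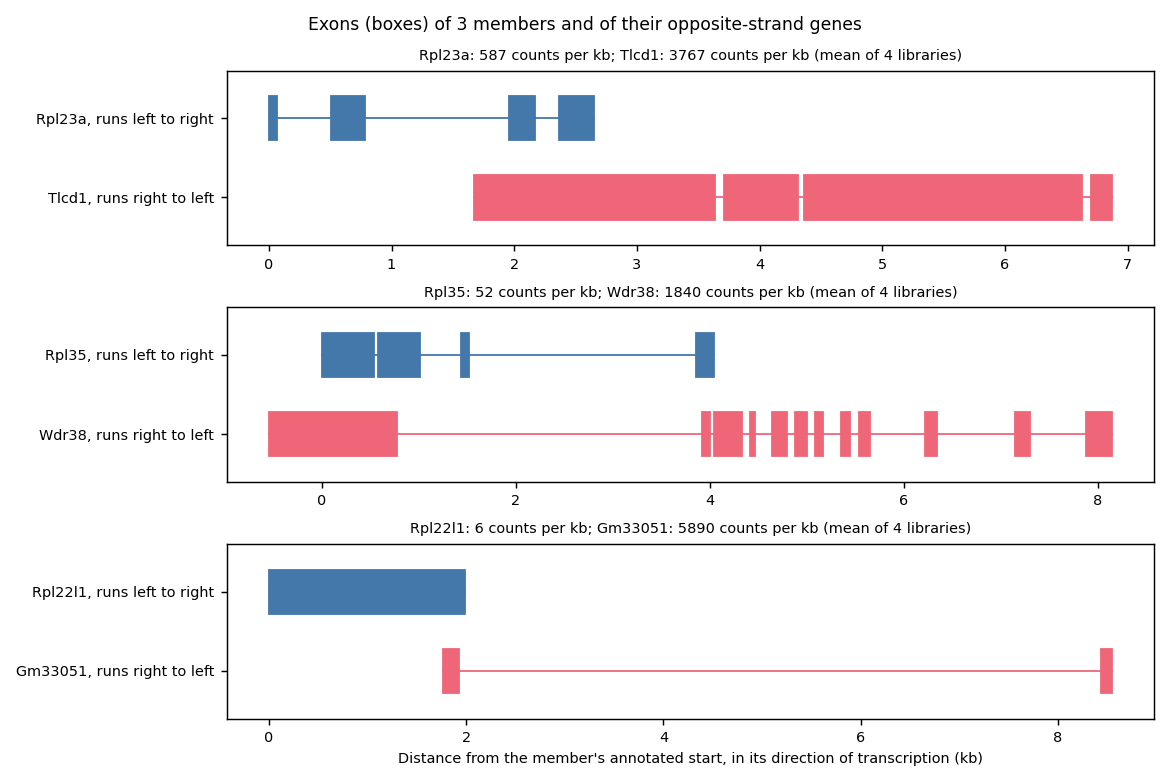
Exons (boxes) of Rpl23a, Rpl35 and Rpl22l1 and of their opposite genes, in kb from the member's annotated start in its direction of transcription, with mean counts per kb in each title. Opposite exons cover parts of the members' exons, and the opposite gene has the higher density in each of the 3 panels.

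Rps25, Rps18, Rps27a and Rpl12 were denser than the genes they start against. Rps25 had 702, 719, 593 and 402 counts, while Trappc4, a subunit of a vesicle tethering complex, had 14, 13, 7 and 5. Rps25 was 56.3-fold denser (41.0 to 79.3), a log2 ratio of 5.83 ± 0.28 (SE, edgeR adjusted p = 1.6e-11). At its other end Rps25 overlaps Ccdc84 over 206 bases, and there it was 3.47-fold denser (3.23 to 3.73).

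Rps18 was 51.2-fold denser (38.5 to 69.4) than Vps52, a subunit of a Golgi tethering complex, which had 49 counts. Rpl12 was 297-fold denser (150.3 to 689) than Lrsam1, a ubiquitin ligase with 8 counts. Rps27a, made as a fusion with ubiquitin, had 329 counts against 1 in Clhc1, a ratio whose counting interval runs from 65.9 to 14653. Rps28 was 11.2-fold denser (7.74 to 16.7) than Kank3. In these pairs the lowest library of the member lay above the highest of the opposite gene.

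For Rps10 and Rps2 the opposite genes, Gm15420 and Snhg9, had no count. Against a floor of 3 counts over the group, Rps10 was at least 13.7-fold and Rps2 at least 11.5-fold denser. Rpl28 exceeded Ube2s, a ubiquitin-conjugating enzyme, by a log2 ratio of 0.64 ± 0.24 (SE, edgeR adjusted p = 0.024), and the ranges overlapped. Without replicate 2 this fell to 0.40 with an edgeR adjusted p of 0.19.

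The log2 ratios of Rpl32 to Cand2 (0.06 ± 0.20), Rpl5 to Fam69a (-0.21 ± 0.19), Rpl18 to Sphk2 (-0.32 ± 0.19) and Rpl31 to Tbc1d8 (-0.05 ± 0.26, all SE) did not pass. Rpl5, which carries 5S ribosomal RNA into the ribosome and binds Mdm2, shares 953 exon bases with Fam69a, the most of any member. Its counts of 593, 704, 548 and 374 stood beside 552, 423, 509 and 378. In the fifth of these pairs, Rps12l1 was at 0 and Gm44510 had 22 counts.

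Most subunit genes were highest in replicate 2. Of the 77 subunit genes, 59 had their highest CPM there, 76.6%. Among 3093 other protein-coding genes with at least 40 counts and no opposite-strand exon overlap, 40.7% did. Of the 62 subunit genes without such an overlap, 48 did. With TMM scaling the counts were 65 of 77 and 47.1%. The members summed to 6432, 8999, 7196 and 6688 CPM. Other groups of genes were highest there too: 21 other mRNAs known to begin with the TOP motif held 0.166, 0.229, 0.207 and 0.185% of counts, and the 6 T cell markers 0.0219, 0.0342, 0.0249 and 0.0270%. Protein-coding genes that have no neighbour on the other strand up to 5 kb away held 2.78, 3.82, 3.36 and 2.92%. The opposite genes held 1.63, 1.31, 1.66 and 1.56%, lowest in replicate 2, as did all 4801 protein-coding genes with an opposite-strand exon overlap, with 43.3, 37.8, 44.5 and 40.2%. Replicate 2 also had the largest ribosomal RNA share. The macrophage markers were lowest there, at 0.0293%, but Csf1r held 2680 of their 2710 counts. Cd68 had 2, 15, 7 and 6 counts in replicates 1 to 4, the most in replicate 2. The part of each in these differences was not tested.

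**Figure D5:**
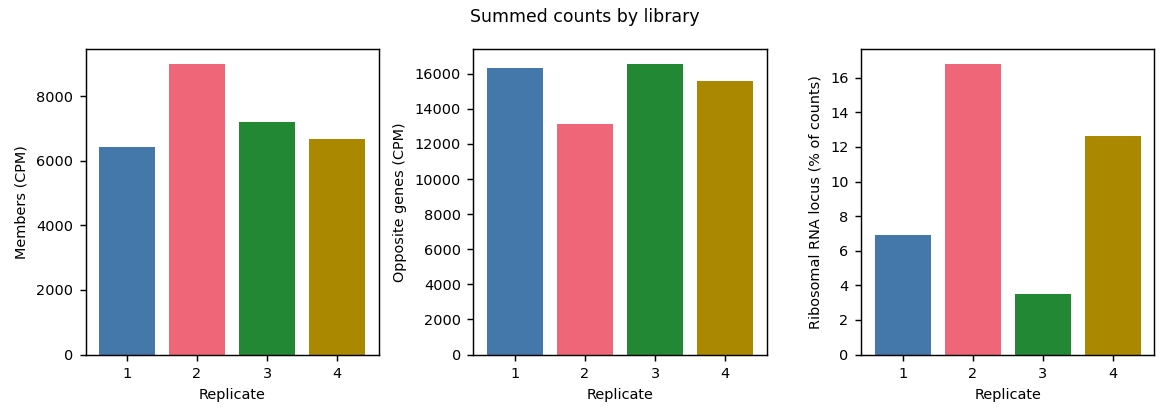
Summed CPM of the members, summed CPM of the 19 opposite genes, and the ribosomal RNA locus as a percent of counts, as 1 bar per replicate. Replicate 2 is highest for the members at 8999 CPM and lowest for the opposite genes.

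No member passed the adjusted threshold for spread beyond the trend of all genes. In edgeR, 0 of 74 members tested passed an adjusted p of 0.05, where 0.278% of 5755 genes did. At an unadjusted p of 0.05 it was 14 of 74, where 4.95% of all genes did, and 12 of the 14 were highest in replicate 2. Without replicate 2 it was 1 of 75. The lowest p was that of Rps4x, the X-linked small subunit protein, with 124, 289, 237 and 200 counts and an edgeR adjusted p of 0.20. The filter in this fit asks for a minimum in every library, so it leaves out genes that are low in 1 library. It dropped 1692 of 7447 genes with at least 40 counts, 5 of 79 members among them. With a filter on the summed count in its place, 0 of 79 members passed the adjusted p and 9 the unadjusted one, where 4.93% of all genes did. The coefficient of variation of CPM over those 79 members ran from 6.20% to 59.7%, with a median of 23.7%.

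Small nucleolar RNA genes that lie inside the members numbered 57, in 29 hosts. Of these, 5 had a count, where 7.5% of all 1507 such genes did. Gm26387 and Gm22270, both in Rpl5, had 80 and 58 of the 145 counts. Of the 57, 29 share exon bases with the host on the same strand, and no fragment was counted in any of these. The 5 with a count share no exon bases with the host. What part the shared bases have in the counts was not tested.

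Fau, which encodes a small subunit protein fused to a ubiquitin-like one and falls outside the name rule, averaged 148 ± 41.7 TPM (SD, n = 4). The 39 ribosome biogenesis factors were all at 1 TPM or more, with a median of 4.55 TPM. The highest was Bysl, a factor of small subunit maturation, at 348 ± 14.2 TPM. It shares exon bases with Ccnd3 on the other strand. Of the 13 with an opposite-strand exon overlap, 4 had a denser opposite gene and 7 were the denser side, against the same 45.8% and 43.4%. The 21 other mRNAs of the TOP class had a median of 19.9 TPM, led by the elongation factor Eef1a1 at 478 TPM. Of its 3 genes with an opposite exon overlap, 1 had a denser opposite gene and 2 were the denser side. Of 10 genes of the S6 kinase families, 6 reached 1 TPM. The 3 with an opposite exon overlap each had a denser opposite gene, where 45.8% of all genes tested did.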

How the data were processed

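RNA from 4 libraries of cells labelled T-helper 2 was analysed. The authors deposited raw counts of fragments per gene, made per the file headers with featureCounts 1.4.6-p4 over exons of GENCODE mouse release 13 on mm10, with strand setting 1 and both ends aligned. The exon length per gene, in bases, is another column deposited by the authors (other unit), per the file headers. The library kit is not given in the sources used here.

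Here, symbols (50376 of 50600 matched) and gene types came from GENCODE release 21. CPM and TPM were computed from the counts, with a pseudocount of 0.1 TPM for log2 values. Pairs with at least 20 counts were tested with edgeR 4.0.16 in R 4.3.3 (quasi-likelihood, library as block, offsets for exon length, Benjamini-Hochberg, 0.05), with DESeq2 1.42.0 as an alternative. Each gene entered with the opposite gene of its largest exon overlap. A gene's spread was tested against the edgeR trend after filterByExpr and TMM. Tables were read with pandas 2.3.3. The tests were tested on simulated data. With 1 group, filterByExpr asks for a minimum in every library, so a filter on the summed count was added after seeing the data. No library was a copy of another (chi-square 6.29 to 24.8 per degree of freedom over 6 pairs).

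A gene that the rule takes, its opposite gene and another list gene are not reported here and enter no count or sum over members. The members and gene lists were chosen with earlier results of these data known. The rule for names took the 10 members highest by mean TPM, those at 0, the paralogs and other non-canonical members, the stalk members and Rpsa, the pairs past the threshold, and the 10 opposite genes with the most counts. Other genes were chosen after their values were seen. Levels of NK, granulocyte, erythroid and mast cell markers were also computed: 0 of 4, 0 of 3, 1 of 3 and 1 of 3 reached 1 TPM.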

Additional observations from a re-analysis of the deposited data

Results flagged for a closer look

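Of 91 genes tested for a library far from the other 3, 5 were found, and chance alone flags about 1 in 20. Rpl17 was at 238 CPM in replicate 2, against 159 to 172 in the others, and Rpl38 at 19.1 CPM in replicate 2, against 8.26 to 9.85. Rpl27 was low in replicate 3, at 4.68 CPM against 13.1 to 13.2, which is 9 counts. Among the opposite genes, Fam69a, opposite Rpl5, was at 180 CPM in replicate 2 against 259 to 265, and Gm33051, opposite Rpl22l1, at 1102 CPM in replicate 3 against 698 to 762. Named ribosomal protein pseudogenes, which the rule leaves out, summed to 167 ± 27.2 CPM (SD, n = 4). Of 283 such pseudogenes, 53 had a count, and Rps7-ps2 had the most, 314.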

How the results depend on the processing

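Of the alternatives to the main values, 54 kept the value within its spread or 1.5 times the count, 5 moved further and 4 turned the sign. With opposite genes that are not protein-coding, 1 member had a denser opposite gene and 2 were denser. With at least 100 bases of overlap, 4 members were denser. The first of these settings kept only the pairs of Rpl22l1, Rps12l1, Rps10 and Rps2, and the second left out pairs with a smaller overlap. Each pair that was kept had the direction and call of the main fit, so the lower counts come from the pairs left out. Shares over all genes at these settings are not given. The share of the opposite genes became 1.74% of a total without the mitochondrial genome and the ribosomal RNA locus. The median level was 4.90 (log2) as TMM-scaled CPM per kb. With means in place of medians, overlap minus no overlap turned to 0.62 and large minus small to 0.15. The first ran from -0.18 without replicate 4 to 0.054 without replicate 2, with 0.034 without replicate 1. Among single pairs, 111 values kept direction and call. Rpl32 over Cand2 ran from -0.16 without replicate 2 (edgeR adjusted p = 0.39) to 0.24 without replicate 4, Rpl31 over Tbc1d8 ran from -0.22 without replicate 2 to 0.15 without replicate 1 (edgeR adjusted p = 0.64), and Rpl28 over Ube2s 0.40 without replicate 2; the cause was not tested. No member passed the adjusted edgeR p for spread under the 7 other settings run, including a summed count filter chosen after seeing the data, with 1 member (without replicate 2) to 19 (without replicate 4) at an unadjusted p of 0.05. Samples could not be paired between groups because there is 1 group. A member and its opposite gene were compared within each library. Depth limits the 15 other members, of which 7 had no count and 3 had 1 to 3.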
